A study of Homo sapiens with 9 samples.

Results

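Open chromatin was described at 9 genes of the ETS family of transcription factors, ETS1, ETS2, FLI1, ERG, ELF1, ELK3, ETV6, GABPA and SPI1, in Jurkat clone E6-1, an established line from a human T cell leukaemia. A region belonged to a gene when it lay in the gene body or within 50 kb of the transcription start site (TSS, taken as the 5′ end of the gene record of GENCODE release 44 on GRCh37). By this rule 91 regions were at the 9 genes, of 40703 on the autosomes and sex chromosomes after peaks of the lists that overlapped or touched had been joined. The measure was FAIRE-seq (formaldehyde-assisted isolation of regulatory elements), in which cross-linked chromatin is sheared and the DNA not held by nucleosomes is recovered and sequenced. The series has 9 samples of 1 library each, and peak lists of 4 of them were used, while the other 5 samples were not analysed here.

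By their labels, the 4 lists come from non-stimulated cells (NS) and resting cells after stimulus withdrawal (SW), each after vehicle (DMSO) or after 1 h with 15 μM rottlerin, a protein kinase C inhibitor. SW cells are labelled as stimulated for 4 h with PMA and calcium ionophore, washed and rested for 1 day. The methods of the study give a shorter stimulation, and describe peak calling for the DMSO samples alone, which does not match the labels of the rottlerin lists. When all peaks were joined across the 4 lists, 40731 regions were obtained, 28 of them on other sequences than the autosomes and sex chromosomes. The same total is given in the methods for the DMSO samples. The lists are therefore called by their labels, the label NS DMSO being contradicted by nothing, and no difference between lists is read as an effect of rottlerin or of stimulus withdrawal. Peaks in each list were called against 1 total input library, an equal mixture of DNA from unstimulated and PMA/ionophore-stimulated cells. With 1 library per list there is no spread between replicates, and the labels are in doubt, so no test between lists was run and no p-value is given. The 95% Wilson intervals of shares cover counting error only.

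ETS factors share a winged helix-turn-helix domain that binds DNA with a GGAA core, and the flanking bases and partner factors separate their targets. In T cells ETS1 is a main family member, often binding beside RUNX1, and is phosphorylated after calcium and MAP kinase signals. FLI1 and ERG are close relatives needed in blood stem cells and the endothelium, and ERG is active in some T cell leukaemias. ELF1 is a lymphoid activator. ELK3 is a ternary complex factor that joins serum response factor and answers to ERK. ETV6 is a repressor that is often rearranged in leukaemia. GABPA binds housekeeping promoters together with GABPB, and SPI1 (PU.1) drives myeloid and B cell fates and is switched off when T cells commit. The binding letters of ETS factors and of NFAT overlap in the GGAA core, and AP-1 and NFAT are the factors classically induced by PMA and ionophore.

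The sequences below carry the main patterns described further on. Each is the central 300 bases of a region, on the plus strand of GRCh37, named by the distance of the region's mid-point from the TSS in the direction of transcription. Capitals mark ETS sites (CGGAAGT or AGGAAGT), AP-1 sites (TGANTCA), NFAT sites (TGGAAA) and basic helix-loop-helix (bHLH) sites (CACCTG or CAGCTG), on either strand. The first 5 come from the 10 regions with a peak in every list but the one labelled NS DMSO. They had the highest fold enrichment of the 10, and they include the strongest peaks at any of the 9 genes. Of all 10 regions, 5 held an AP-1 site, against 36.7% of all merged regions of this kind.
ELK3 +43.6 kb, chr12:96631599-96631898: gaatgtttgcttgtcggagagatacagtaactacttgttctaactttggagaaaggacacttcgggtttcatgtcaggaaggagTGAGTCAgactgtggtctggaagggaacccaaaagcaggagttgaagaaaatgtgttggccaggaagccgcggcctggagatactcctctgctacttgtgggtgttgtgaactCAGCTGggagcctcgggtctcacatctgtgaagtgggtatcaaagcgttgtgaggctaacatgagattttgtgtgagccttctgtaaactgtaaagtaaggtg
SPI1 +8.7 kb, chr11:47391222-47391521: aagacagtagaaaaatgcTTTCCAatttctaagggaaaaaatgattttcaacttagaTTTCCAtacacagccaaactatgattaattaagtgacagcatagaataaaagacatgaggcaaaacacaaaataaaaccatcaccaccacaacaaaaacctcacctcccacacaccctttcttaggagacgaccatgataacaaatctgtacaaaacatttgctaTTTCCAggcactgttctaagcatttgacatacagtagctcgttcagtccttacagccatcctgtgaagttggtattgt
FLI1 −8.3 kb, chr11:128547962-128548261: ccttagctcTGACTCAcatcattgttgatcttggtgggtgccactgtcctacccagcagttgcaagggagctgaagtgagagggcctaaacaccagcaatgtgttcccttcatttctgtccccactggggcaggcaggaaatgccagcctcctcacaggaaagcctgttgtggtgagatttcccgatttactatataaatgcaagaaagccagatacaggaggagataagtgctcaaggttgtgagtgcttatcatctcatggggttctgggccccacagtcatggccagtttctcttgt
ELF1 +52.9 kb, chr13:41582530-41582829: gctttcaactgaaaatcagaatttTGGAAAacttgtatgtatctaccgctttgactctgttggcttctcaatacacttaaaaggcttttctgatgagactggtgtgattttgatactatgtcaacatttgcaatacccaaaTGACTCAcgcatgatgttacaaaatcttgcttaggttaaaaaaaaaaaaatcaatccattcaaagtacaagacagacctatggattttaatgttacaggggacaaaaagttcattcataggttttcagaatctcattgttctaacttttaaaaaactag
ELK3 +4.7 kb, chr12:96592741-96593040: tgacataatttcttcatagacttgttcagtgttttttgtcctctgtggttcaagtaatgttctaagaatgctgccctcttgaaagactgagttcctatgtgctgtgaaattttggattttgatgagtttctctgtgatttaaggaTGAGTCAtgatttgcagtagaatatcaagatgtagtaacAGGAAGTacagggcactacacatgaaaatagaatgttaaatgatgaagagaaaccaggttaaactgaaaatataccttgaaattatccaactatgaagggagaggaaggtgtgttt
The next sequence is from the region with the largest ratio of fold enrichment to the NS DMSO list, the one after it from a region called in the NS DMSO list alone, and the last from a FLI1 intron region with 2 ETS sites.
ETV6 +70.3 kb, chr12:11872768-11873067: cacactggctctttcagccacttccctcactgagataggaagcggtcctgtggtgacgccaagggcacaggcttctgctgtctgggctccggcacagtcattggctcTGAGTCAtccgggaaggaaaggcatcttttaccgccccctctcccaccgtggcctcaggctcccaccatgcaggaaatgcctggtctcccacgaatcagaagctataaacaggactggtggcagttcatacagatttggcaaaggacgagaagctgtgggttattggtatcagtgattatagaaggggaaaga
ETV6 +103.6 kb, chr12:11906026-11906325: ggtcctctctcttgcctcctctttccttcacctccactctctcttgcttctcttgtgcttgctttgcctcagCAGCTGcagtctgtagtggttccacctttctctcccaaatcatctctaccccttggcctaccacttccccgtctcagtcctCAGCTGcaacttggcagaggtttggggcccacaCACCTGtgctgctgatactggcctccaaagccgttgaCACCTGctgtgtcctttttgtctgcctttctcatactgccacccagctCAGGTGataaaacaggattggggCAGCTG
FLI1 +40.4 kb, chr11:128596666-128596965: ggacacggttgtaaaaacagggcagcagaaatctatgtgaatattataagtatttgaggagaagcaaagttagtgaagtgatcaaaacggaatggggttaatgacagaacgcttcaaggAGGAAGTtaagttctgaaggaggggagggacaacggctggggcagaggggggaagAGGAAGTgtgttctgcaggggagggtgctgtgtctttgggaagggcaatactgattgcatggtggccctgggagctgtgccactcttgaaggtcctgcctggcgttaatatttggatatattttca
The AP-1 site of the ELK3 +43.6 kb window reads TGAGTCA and begins at base 85, and its bHLH site begins at base 198. The SPI1 window held 3 NFAT sites and no AP-1 site, whereas the FLI1 −8.3 kb window held 1 AP-1 site at base 10. In ELK3 +4.7 kb, an AP-1 site at base 146 was followed by the ETS site AGGAAGT at base 185, and of the 10 regions with its combination of lists only this 1 held an ETS site. The ETV6 +103.6 kb window held 6 bHLH sites and none of the other letters in capitals.

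Regions were unevenly shared among the genes. ETV6 had 22 regions, ETS1 and FLI1 had 16 each, ELF1 had 13, ERG had 8 and ELK3 had 7, and ETS2, GABPA and SPI1 had 3 each. The median of 8 regions per gene compares with a median of 3 over 20163 protein-coding genes, but the genes are long. Per 100 kb of the gene's own window the median was 5.58 regions for the 9 genes against 2.12 for all coding genes. FLI1 was densest with 9.05 regions per 100 kb, followed by ETS1 with 8.95, ETV6 with 7.44 and ELF1 with 7.24. ERG, the longest gene, had 2.41. The other 19 ETS genes, treated in the same way, had a median of 3 regions and 3.00 per 100 kb, and 18 of them had at least 1 region, SPIC being the exception. Of their 60 distinct regions, 23 (38.3%) had no NS DMSO peak, beside 47.3% of the regions at the 9 genes and 53.5% of all merged regions. At all protein-coding genes under the same rule the share was 46.2%, with a region counted at every gene it belonged to.

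**Figure D1:**
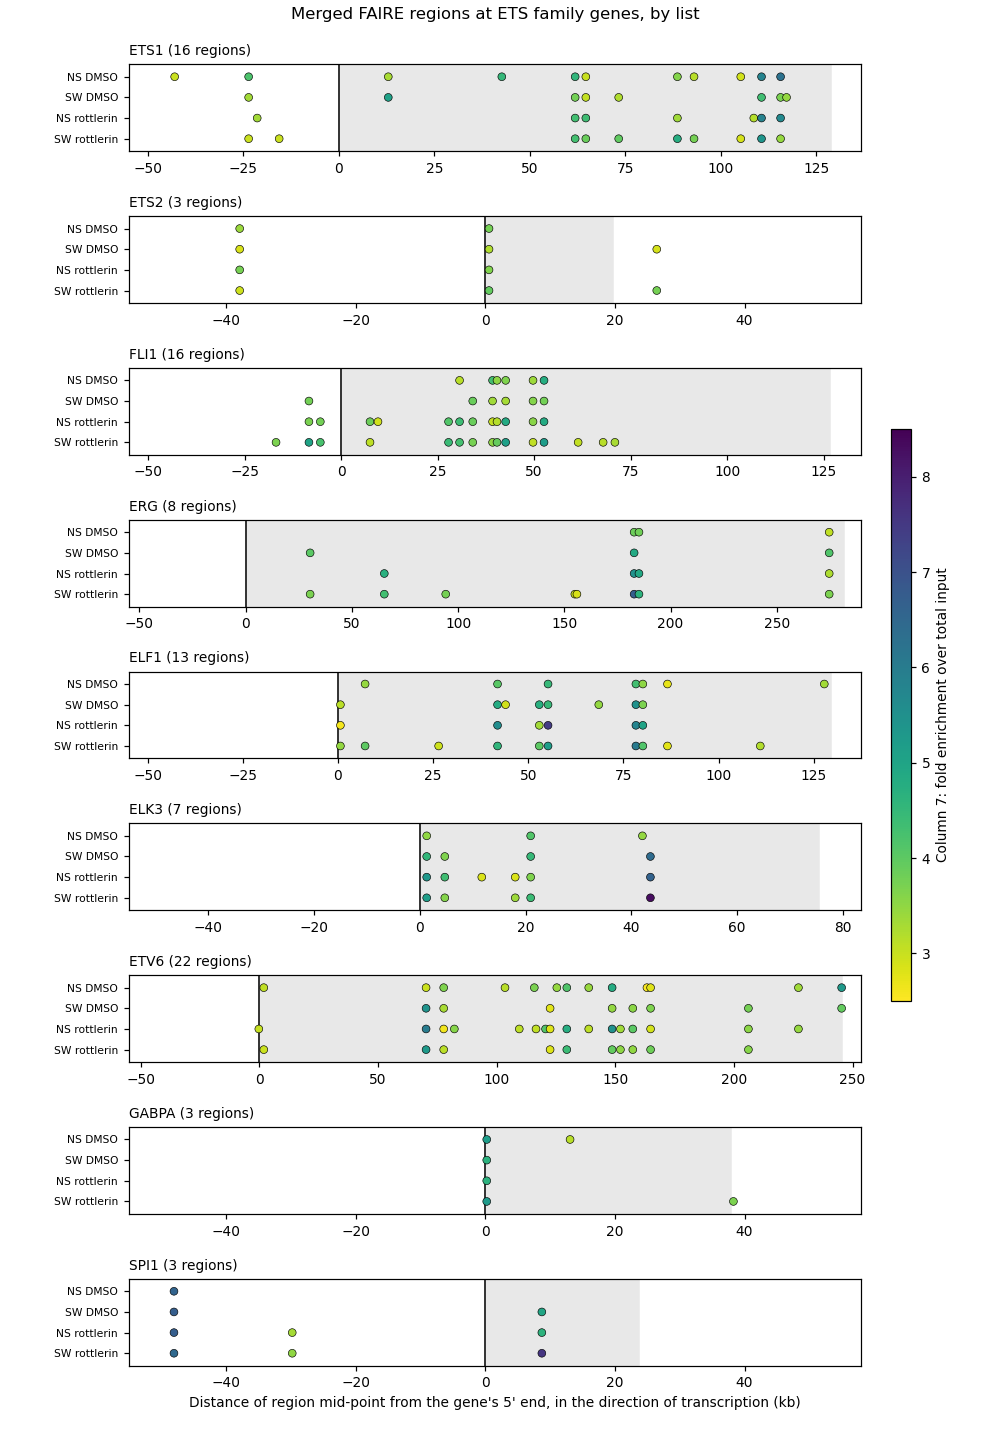
Merged FAIRE regions at the 9 ETS family genes. The x axis of each panel is the distance of the region's mid-point from the gene's 5′ end in kb, in the direction of transcription, the grey band is the gene body, each row is a list, each point is a region with a peak in that list, and colour is the fold enrichment over total input. FLI1 shows 6 points in the NS DMSO row and 15 in the SW rottlerin row, and the darkest point is ELK3 +43.6 kb in the SW rottlerin list, at 8.30.

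Most of these regions lay inside the genes. The mid-point of 74 of the 91 regions (81.3%) was intronic, 11 lay upstream, 2 downstream and 4 in untranslated sequence. For 83 regions (91.2%) the member was also the coding gene with the nearest 5′ end. The mid-point of 5 regions (5.49%) was within 1 kb of the 5′ end of a coding gene record, compared with 18.6% of all merged regions, and the median distance to the nearest such end was 61.4 kb against 26.5 kb. With the start of every coding transcript counted, 12 regions (13.2%) lay within 1 kb of one, compared with 24.3%, and the median distance was 17.8 kb against 14.3 kb. The regions had a median width of 338 bp and a median GC content of 44%, against 294 bp and 46.3% over all regions.

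At the 5′ ends themselves, 4 of the 9 genes (44.4%) had a region within 1 kb of the TSS, where 44.9% of all coding genes did. GABPA had the strongest, chr21:27106139-27108072, with a fold enrichment of 5.19 in the NS DMSO list, 4.68 in SW DMSO, 4.67 in NS rottlerin and 5.25 in SW rottlerin. It carried an ETS site and is shared with the head-to-head neighbour ATP5PF. The fold enrichment is column 7 of the deposited lists, the MACS2 value over total input, and a region takes that of its highest peak in a list. ETS2 had a region at +0.6 kb, chr21:40177463-40177903, with 3.76 in NS DMSO, 3.21 in SW DMSO, 3.63 in NS rottlerin and 3.94 in SW rottlerin. Both start sites were thus called in every list, and no list differed from NS DMSO by a ratio of 1.5.

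The other start site regions were not called in the NS DMSO list. ELF1 had one at +0.6 kb, chr13:41634179-41635704, with 3.13 in SW DMSO, 2.61 in NS rottlerin and 3.48 in SW rottlerin. ETV6 had one at −0.2 kb, chr12:11802204-11802669, called in NS rottlerin alone at 3.04. A missing peak means only that none was called at that library's depth, and the depth is unknown from peak lists. ETS1, FLI1, ERG, ELK3 and SPI1 had no region within 1 kb of the 5′ end of the gene record, although their shorter coding transcripts start further in. At such internal starts, ETS1 +64.7 kb had 3.00 in NS DMSO, 3.04 in SW DMSO, 4.36 in NS rottlerin and 3.86 in SW rottlerin, and FLI1 +7.5 kb was called in the 2 rottlerin lists alone, at 3.84 and 3.09.

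The combinations of lists in which the regions at ETS genes were called were then set beside those of all merged regions. The 4 lists held 18977, 20132, 23835 and 30409 peaks on these chromosomes, in the order NS DMSO, SW DMSO, NS rottlerin and SW rottlerin. They had a peak in 48 (52.7%), 43 (47.3%), 57 (62.6%) and 66 (72.5%) of the 91 regions, against 46.5%, 49.3%, 58.4% and 74.5% of all regions. Altogether 43 regions (47.3%, interval 37.3 to 57.4) had no NS DMSO peak and at least 1 other, where the share over all regions was 53.5%. It was 46.2% at all protein-coding genes by the same rule. All 4 lists had a peak in 24 regions (26.4%, interval 18.4 to 36.3), against 26.6%. A peak in NS DMSO alone was found in 9 regions (9.89%, interval 5.29 to 17.7), against 7.83%. A peak in all of the others and not in NS DMSO was found in 10 regions (11.0%, interval 6.08 to 19.1), against 7.08%. Each of these 4 intervals holds the share over all regions. The single combinations that follow were picked after their values were seen. They rest on few regions, no interval was computed for them, and no difference from all regions is read from them. A peak in NS DMSO and SW rottlerin alone was found in 5 regions (5.49%), against 1.62%, in SW DMSO and SW rottlerin alone in 3 (3.30%), against 6.26%, and in SW rottlerin alone in 11 (12.1%), against 18.2%.

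**Figure D2:**
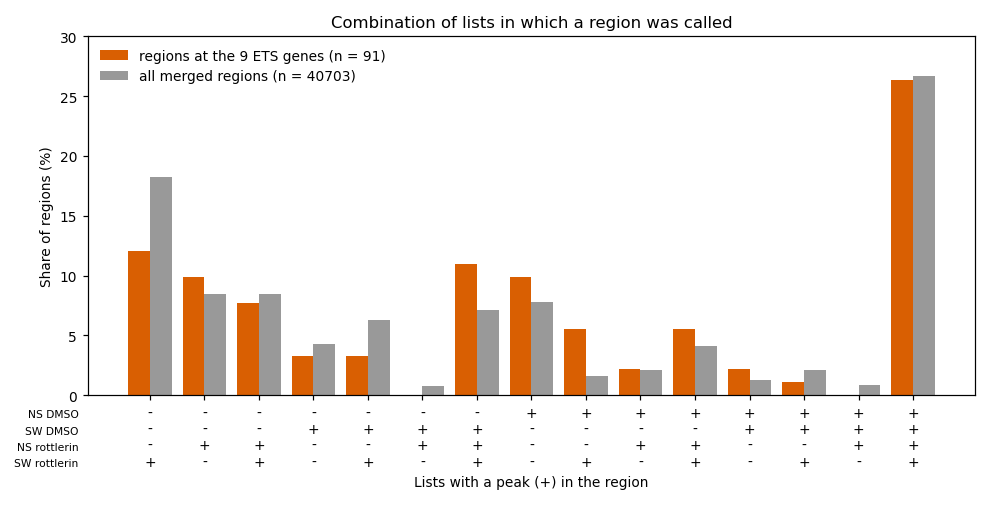
Share of regions (y axis, %) in each combination of lists with a peak (x axis, + for a peak), for the 91 regions at the 9 ETS genes (orange) and all 40703 merged regions (grey). The combination of all 4 lists is the most frequent in both sets, with 26.4% and 26.6%.

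The regions without an NS DMSO peak were then counted by gene, where the share was 53.5% over all merged regions and 46.2% at all protein-coding genes. With 3 to 22 regions per gene, no difference between genes can be read from these counts. At FLI1, 10 of 16 regions had no NS DMSO peak, at ERG 5 of 8, at ELK3 4 of 7 and at SPI1 2 of 3. At ETS1 this was so for 5 of 16, at ETV6 for 9 of 22, at ELF1 for 6 of 13, and at ETS2 and GABPA for 1 of 3 each. The FLI1 gene had 6 regions with a peak in NS DMSO, 6 in SW DMSO, 12 in NS rottlerin and 15 in SW rottlerin. ETS1, its neighbour on chromosome 11, had 11, 8, 7 and 10 in the same order, so its NS DMSO list was the fullest. Of the 10 FLI1 regions without an NS DMSO peak, 2 were called in all of the other lists, 3 in both rottlerin lists, 1 in NS rottlerin alone and 4 in SW rottlerin alone. The 3 in both rottlerin lists were FLI1 −5.4 kb with 3.79 and 4.24, the region at +7.5 kb, and +27.8 kb with 4.12 and 4.43, in NS rottlerin and SW rottlerin. The 4 in SW rottlerin alone lay between 3.06 and 3.69. The list labelled SW rottlerin held the most peaks over all chromosomes, and its part in the FLI1 count was not tested.

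ERG, the relative of FLI1, had 5 regions without an NS DMSO peak, all in introns. ERG +30.4 kb was called in SW DMSO at 4.04 and in SW rottlerin at 3.71, and ERG +65.3 kb in NS rottlerin at 4.69 and in SW rottlerin at 4.33. The other 3 were called in SW rottlerin alone, between 2.87 and 3.75. The remaining ERG regions lay deep in the gene, and of these +185.1 kb had 3.81 in NS DMSO, 4.91 in NS rottlerin and 4.64 in SW rottlerin, with no SW DMSO peak. ERG +274.6 kb, near the 3′ end, had 3.07 in NS DMSO, 4.16 in SW DMSO, 3.24 in NS rottlerin and 3.69 in SW rottlerin. An AP-1 site was found in 4 of the 8 ERG regions. The share was 23.1% over the regions at ETS genes together and 17.9% over all merged regions. With 8 regions and no interval computed, no difference from these shares is read from the ERG count.

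The 10 regions called in all lists but NS DMSO were at FLI1 (2), ELF1 (2), ELK3 (2), ETV6 (3) and SPI1 (1). With 5 of 9 genes (55.6%) this compares with 18.3% of coding genes that have such a region, and a gene with more regions has more chances of one. ELK3, the ternary complex factor, held the strongest. Its region at +43.6 kb, chr12:96631573-96631924, in an intron, had a fold enrichment of 6.43 in SW DMSO, 6.64 in NS rottlerin and 8.30 in SW rottlerin. The scores, which are 10 times the −log10 of the q-value, were 145, 155 and 237. Thus the highest fold enrichment at any of the 9 genes was in a region without an NS DMSO peak. The next region along the gene, at +42.1 kb, chr12:96630141-96630335, was instead called in NS DMSO alone, at 3.48. The region at +4.7 kb, chr12:96592774-96593007, with the AP-1 and ETS sites shown above, had 3.66, 4.35 and 3.61 in SW DMSO, NS rottlerin and SW rottlerin.

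SPI1, the myeloid and B cell factor, had the second strongest of these regions. At +8.7 kb, chr11:47391206-47391538, in an intron, the fold enrichment was 4.97 in SW DMSO, 4.65 in NS rottlerin and 7.58 in SW rottlerin. Besides the 3 NFAT sites, its central 300 bases held a RUNX site (TGTGGT) and a GATA site (AGATAA or TGATAA). The SPI1 window held 2 more regions. One at −48.0 kb, chr11:47447970-47448259, was called in every list at nearly 1 level, 6.59 in NS DMSO, 6.74 in SW DMSO, 6.74 in NS rottlerin and 6.48 in SW rottlerin, and is nearest to the start of PSMC3, a proteasome gene. The other, at −29.8 kb inside SLC39A13, a zinc transporter gene, was called in NS rottlerin at 3.30 and in SW rottlerin at 3.51 and held 2 ETS sites. No region lay within 1 kb of the SPI1 TSS. Of markers of other cells, none of 4 B cell, 5 myeloid and 4 erythroid or other genes had a region within 1 kb of the TSS in any list, whereas 7 of 8 T cell genes did.

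FLI1 and ELF1 each contributed a pair. FLI1 −8.3 kb, chr11:128547900-128548323, upstream of the gene, had 3.77 in SW DMSO, 3.70 in NS rottlerin and 5.03 in SW rottlerin. FLI1 +34.1 kb, chr11:128590363-128590700, had 3.87, 3.87 and 3.73 in the same order. ELF1 +52.9 kb, chr13:41582544-41582815, had 4.71, 3.33 and 4.01. It lay next to the broadest region of the set, ELF1 +55.2 kb, chr13:41578985-41581768, which spans 2784 bp and was called in every list. The second ELF1 region of this kind was that at the TSS.

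The ETV6 gene contributed 3 such regions, all intronic. They lay at +122.6 kb, chr12:11924993-11925363, at +157.4 kb, chr12:11959782-11960260, and at +206.1 kb, chr12:12008572-12008915. The fold enrichment in SW DMSO, NS rottlerin and SW rottlerin was 2.76, 2.83 and 2.81 in the first, 3.54, 4.05 and 3.49 in the second, and 3.76, 3.54 and 3.58 in the third. The first held 2 AP-1 sites, and the third is nearer to the 5′ end of the BCL2L14 gene record than to that of ETV6, although shorter ETV6 transcripts start closer to it. No region of this kind was found at ETS1, ETS2, ERG or GABPA.

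**Figure D3:**
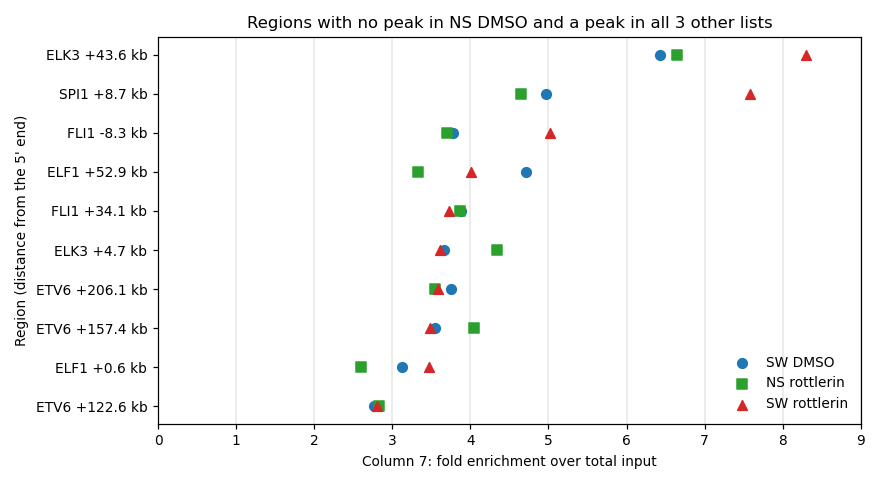
Fold enrichment over total input (x axis) of the 10 regions with no peak in NS DMSO and a peak in the other 3 lists (y axis, gene and distance from the 5′ end), with 1 symbol per list. ELK3 +43.6 kb and SPI1 +8.7 kb reach 8.30 and 7.58 in SW rottlerin, ETV6 +122.6 kb lies between 2.76 and 2.83 in the 3 lists, and the lowest single point is ELF1 +0.6 kb in NS rottlerin, at 2.61.

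Regions called in NS DMSO alone numbered 9, of which 4 were at ETV6. These lay at +103.6 kb (chr12:11906069-11906282), +115.9 kb, +125.4 kb and +163.4 kb, with fold enrichments of 3.13, 3.71, 3.44 and 2.53. ETS1 had 2, at −43.0 kb with 2.98 and at +42.7 kb with 4.51, the latter being the highest of the 9. ELF1 had 1 in its untranslated sequence at +127.8 kb, with 3.32, and GABPA had 1 at +13.1 kb, with 3.15. Together with the ELK3 region given above, 8 of the 9 lay below 4.06, the median fold enrichment of all regions with an NS DMSO peak. That median includes regions called in every list. The median over all regions called in NS DMSO alone was not computed, so the low values are not read as a trait of the ETS genes. None of the 9 held an AP-1 site, which 6.31% of all regions called in NS DMSO alone held, and 5 held a bHLH site, against 51.9%.

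The fold enrichment of regions called both in NS DMSO and in another list differed little in the median. In SW DMSO, 27 regions could be compared, and the ratio to NS DMSO had a median of 0.999 (interquartile range 0.810 to 1.23), against 0.980 over all regions shared by the same lists. In NS rottlerin, the median was 1.05 over 31 regions (0.935 to 1.36), against 1.04. In SW rottlerin, it was 1.09 over 35 regions (0.956 to 1.25), against 1.06. A ratio of at least 1.5 was reached by 2 regions in SW DMSO, 3 in NS rottlerin and 2 in SW rottlerin, where the shares of all shared regions were 1.67%, 3.19% and 4.5%. A ratio of 0.667 or less was found in 1 region in SW DMSO, none in NS rottlerin and 1 in SW rottlerin, with shares over all shared regions of 2.18%, 1.38% and 1.54%. At the 24 regions called in all 4 lists, 9 had a fold enrichment above that of NS DMSO in each of the other 3 lists (37.5%, against 32.2% of all such regions), and 4 had one below it in each (16.7%, against 18.9%).

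**Figure D4:**
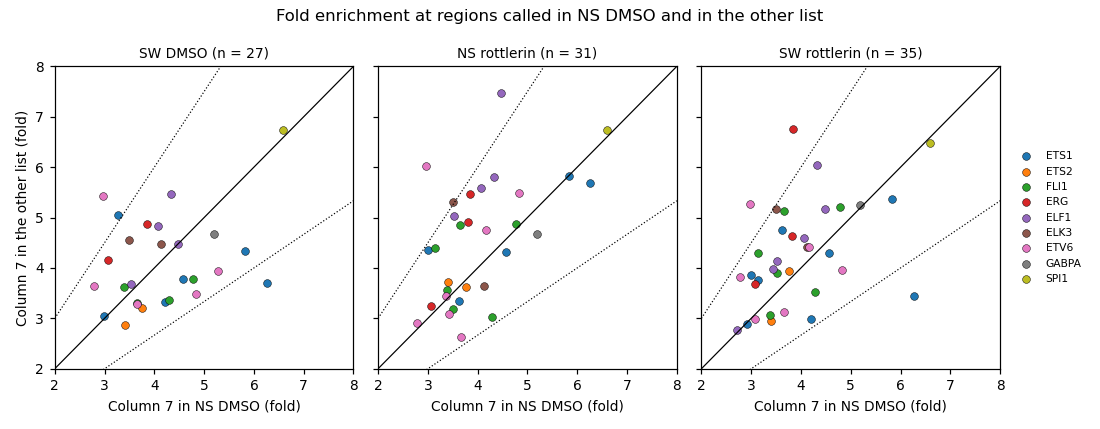
Fold enrichment over total input in NS DMSO (x axis) and in another list (y axis, 1 panel per list) at regions called in both, coloured by gene. The solid line marks equal values and the dotted lines a ratio of 1.5 in either direction. In SW DMSO 2 points, in NS rottlerin 3 and in SW rottlerin 2 lie at or beyond the upper dotted line, and the ETV6 region at +70.3 kb is among them in every panel.

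The largest ratios were at an ETV6 intron. ETV6 +70.3 kb, chr12:11872714-11873122, had a fold enrichment of 2.97 in NS DMSO, 5.42 in SW DMSO, 6.02 in NS rottlerin and 5.27 in SW rottlerin. Its ratios to NS DMSO were 1.83, 2.03 and 1.78, so that all of the other lists lay above NS DMSO and close to each other. Its sequence, shown above, has an AP-1 site TGAGTCA that begins at base 108. ETS1 held the opposite case. ETS1 +115.7 kb, chr11:128341218-128342351, towards the 3′ end of the gene, had 6.27 in NS DMSO, 3.71 in SW DMSO, 5.69 in NS rottlerin and 3.44 in SW rottlerin. Its ratios were 0.592, 0.907 and 0.549, so the 2 SW-labelled lists were low and the 2 NS-labelled lists high.

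The other 4 cases passed the fold in 1 list each. ERG +182.9 kb, chr21:39850635-39851064, with an AP-1 site, had 3.84 in NS DMSO, 4.88 in SW DMSO, 5.46 in NS rottlerin and 6.75 in SW rottlerin, the last with a ratio of 1.76. ELF1 +55.2 kb had 4.48 in NS DMSO, 4.48 in SW DMSO, 7.46 in NS rottlerin and 5.17 in SW rottlerin, with a ratio of 1.67 in NS rottlerin. ELK3 +1.3 kb, chr12:96589232-96589708, close to an internal start, had 3.50 in NS DMSO, 4.56 in SW DMSO, 5.31 in NS rottlerin and 5.16 in SW rottlerin, with a ratio of 1.52 in NS rottlerin. ETS1 +13.0 kb had 3.28 in NS DMSO and 5.06 in SW DMSO, a ratio of 1.54, and no peak in the rottlerin lists.

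Other strong regions stayed within a ratio of 1.5 in every list. ETS1 +110.7 kb, chr11:128346157-128347397, had 5.83 in NS DMSO, 4.33 in SW DMSO, 5.83 in NS rottlerin and 5.38 in SW rottlerin. FLI1 +52.6 kb, chr11:128608813-128609176, had 4.78, 3.78, 4.86 and 5.22 in the same order and was the strongest FLI1 region. The highest ETS2 value was 3.94, at its TSS. ETS2 −37.9 kb, upstream, had 3.40 in NS DMSO, 2.87 in SW DMSO, 3.72 in NS rottlerin and 2.95 in SW rottlerin. One more region at ETS2 and one at GABPA had no NS DMSO peak. ETS2 +26.5 kb, downstream of the gene, had 2.89 in SW DMSO and 3.75 in SW rottlerin, and GABPA +38.3 kb had 3.67 in SW rottlerin alone.

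Sites for ETS factors themselves were then sought at the ETS genes. An ETS site was found in the central 300 bases of 13 of the 91 regions (14.3%, interval 8.54 to 22.9), against 19.3% of all merged regions, a share inside that interval. They were 2 at ETS1, 3 at FLI1, 2 at ELF1, 1 at ELK3, 2 at ETV6, 2 at GABPA and 1 at SPI1. Of the 43 regions without an NS DMSO peak, 9 held one (20.9%, interval 11.4 to 35.2), against 20.01% of all regions of this kind. Of the 48 regions with an NS DMSO peak, 4 held one (8.33%, interval 3.29 to 19.6), against 18.5%. Among the 10 regions called in all lists but NS DMSO, 1 held one, against 23.7%. A match of letters is a description of the sequence and not a bound site.

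Sites for AP-1 were found in 21 regions (23.1%, interval 15.6 to 32.7), against 17.9% of all regions. In regions without an NS DMSO peak, 13 of 43 held one (30.2%, interval 18.6 to 45.1), against 25.8%, and in those with an NS DMSO peak 8 of 48 (16.7%, interval 8.70 to 29.6), against 8.83%. Of the 10 regions called in all lists but NS DMSO, 5 held an AP-1 site, namely ELK3 +4.7 kb and +43.6 kb, FLI1 −8.3 kb, ELF1 +52.9 kb and ETV6 +122.6 kb, where the share over all such regions was 36.7%. NFAT letters were found in 22 regions (24.2%, against 27.9%), RUNX letters in 29 (31.9%, against 32.8%) and GATA letters in 28 (30.8%, against 31.5%). No region held the NF-κB letters GGGANTTCC, which 1.41% of all regions held.

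The bHLH letters bound by E proteins went the other way from AP-1, at the ETS genes and over all merged regions alike. In both sets they were more frequent with an NS DMSO peak than without, and AP-1 sites less frequent. They were found in 28 regions (30.8%, interval 22.2 to 40.9), against 34.3% of all regions. Of the regions without an NS DMSO peak, 7 of 43 held them (16.3%, interval 8.12 to 29.97), against 30.5%. The latter share lies just above the interval, and 9 motif families were searched. Of those with an NS DMSO peak, 21 of 48 held them (43.8%, interval 30.7 to 57.7), against 38.7%. The median GC content at ETS genes and over all regions was 43% and 44.3% in the first group, and 45.5% and 50% in the second. Within 1 kb of the 5′ end of a coding gene record lay 4.65% and 8.97% in the first group. In the second group these were 6.25% and 29.8%. The part of GC content and of position in the motif shares was not tested.

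**Figure D5:**
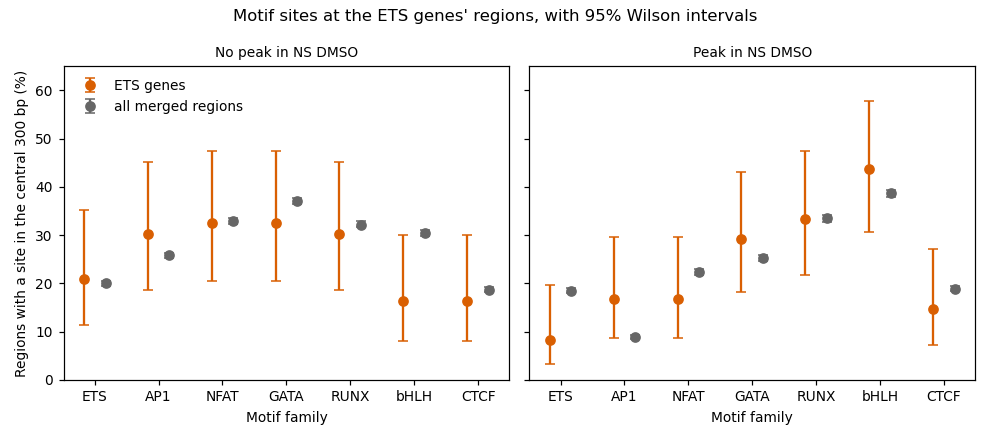
Share of regions with a motif in the central 300 bases (y axis, %) for 7 motif families (x axis), in regions without (left) and with (right) an NS DMSO peak, at the 9 ETS genes (orange) and over all merged regions (grey), with 95% Wilson intervals. The bHLH share at the ETS genes is 16.3% in the left panel and 43.8% in the right, and the ETS share is 20.9% and 8.33%.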

How the data were processed

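FAIRE-seq libraries of Jurkat cells, 1 per state, were sequenced with a total input library. Per the methods, reads were cleaned of adapters (CutAdapt), aligned to Hg19 (Bowtie2) and freed of duplicates (Picard) before the authors ran MACS2 in Broad mode against total input. Tool versions are not given in the sources used here. The lists the authors deposited hold for each peak its position and a score. They also give fold enrichment over input, a ratio computed by the authors' caller, and, per the deposited columns, p and q values as −log10. They hold no read counts, so depth is unknown.

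Peaks that overlapped or touched were merged, 28 regions on other sequences than the autosomes and sex chromosomes were dropped, and genes came from GENCODE release 44 on GRCh37. Distances run from the gene's 5′ end to the region's mid-point. Regions called in a list took its highest fold. Letters were sought on both strands of the central 300 bp for 9 motif families, where an ETS and an NFAT site cannot share the same GGAA. Regions named were those within 1 kb of a TSS, in all lists but NS DMSO, in NS DMSO alone, with a gene's highest fold, or with a ratio of at least 1.5, and a few were named after their values were seen (the ERG, FLI1, ETS2, GABPA and SPI1 regions beyond these, regions at internal start sites, and ETS1 +110.7 kb). The 9 genes, the gene lists and the motifs were chosen with earlier results of these data known. No test between lists was run, because each holds 1 library and the states behind their labels are in doubt, and shares are set beside those of all regions. The merging was tested on simulated data. The software was samtools 1.23.1 and Python 3.11.15 with matplotlib 3.10.9, pysam 0.24.0, scipy 1.17.1, numpy 2.4.6 and pandas 2.3.3.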

Additional observations from a re-analysis of the deposited data

How the results depend on the processing

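Under 14 alternatives, 74 of 80 values stayed within bounds and 6 moved. The bounds were the interval of the reported share or median ratio and, for the count of regions, 1.5 times in either direction. With the same number of highest-scoring peaks from each list, the share of ETS gene regions without an NS DMSO peak was 35.1% and that in NS DMSO alone was 18.9%, beside 41.5% and 13.3% of all regions. Counting only within 50 kb of the TSS left 42 regions. The share with an ETS site was 28.6% over whole regions, 23.1% in the central 500 bp and 49.5% with the letters CGGAAG or AGGAAG, beside 25.1%, 25.0% and 50.4% of all regions. Leaving out each of the 3 lists other than NS DMSO, chosen after seeing the data, moved no value past these bounds. Without the SW rottlerin list the share in NS DMSO alone was 17.5% in place of 9.89%. That share cannot fall when another list is left out, and the share over all regions was not computed for this setting. No paired analysis was possible because the groups share fewer than 2 replicate numbers, with 1 library each, and the states behind the list labels are in doubt. A region without a peak was not called at that library's depth, which the lists do not give.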
